A study of Homo sapiens with 30 samples.

Results

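The comparison described here is the change between 1 h and 24 h of culture in macrophage-like cells kept with 100 µg/ml of titanium dioxide nanobelts (TiO2-NB). Its members are the arrays that the sample titles place at this dose of TiO2-NB, 3 at 24 h and 3 at 1 h, which makes 6 of the 30 arrays of the series. All 30 arrays carry total RNA of THP-1, an established human acute monocytic leukaemia line. All cultures, controls included, first received 82 nM of the phorbol ester PMA over 24 h, which makes THP-1 cells adherent and macrophage-like. The cells were then scraped, counted, replated and given particles in medium, or medium without particles, for 1 or 24 h. The other groups used below are control cells without particles, cells with 10 µg/ml TiO2-NB, and cells with 100 µg/ml multi-walled carbon nanotubes (MWCNT), each with 3 arrays at 1 h and 3 at 24 h. A single line stands for macrophages in all of them, and RNA was taken from the cells that were adherent at the end. Whole cultures were measured, so fewer cells of a kind and less RNA per cell cannot be told apart.

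TiO2 nanobelts are long ribbon-shaped particles that macrophages take up. Macrophages answer particles, microbes and damage with chemokines and cytokines, many of them switched on through the transcription factor NF-kappaB. PMA stops THP-1 cells from dividing and turns on macrophage genes, and this programme goes on while the cells are kept in culture. A time comparison in exposed cells therefore holds both the course of the culture and whatever the particles add to it. The question here is which time changes of control cells persisted, weakened or were absent with TiO2-NB, and which were found only beside the particles.

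Levels are log2 RMA intensities, and a time change is the mean level at 24 h minus that at 1 h. In limma's fit a gene is called at a Benjamini-Hochberg adjusted p under 0.05. Errors of changes are standard errors of that fit, with n = 3 arrays in every group. The difference of time changes is that with TiO2-NB minus that in control cells. It is also the response to TiO2-NB at 24 h minus the response at 1 h.

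Array values correlated at 0.992 or higher within both member groups, and at 0.968 at most between the 2 times. The first principal component of the 6 arrays took 78.1% of the variance and parted the times. On the second component, which took 8.5%, replicate 1 at 24 h lay at -16 and the other 24 h arrays at 7.5 and 7.9. Array medians of the series lay between 6.35 and 6.46, with the lowest in that same array. The 3-prime minus 5-prime difference of the control probe sets for GAPDH was 0.29 to 0.32 at 1 h and 0.31 to 0.48 at 24 h with TiO2-NB, and that for ACTB 0.56 to 0.76 and 0.49 to 0.54. Of 5 macrophage markers 4 could be tested (CD14, CSF1R, ITGAX and ITGAM), and their summed level was 37.87 to 39.32 at 1 h and 40.35 to 40.53 at 24 h with TiO2-NB, against 41.25 to 41.71 in the 24 h control. Markers of other cell types were summed in the same way. The sum of KRT8 and KRT18 (epithelium) went from 11.03 to 11.51 at 1 h to 11.45 to 11.84 at 24 h, that of CD3D and CD3E (T cells) from 10.61 to 10.88 to 11.25 to 11.44, and that of COL1A1, COL1A2 and DCN (fibroblasts) from 17.33 to 17.65 to 18.81 to 19.16, beside 18.22 to 18.68 and 17.86 to 18.82 in control. The 5 promonocyte markers MYB, MPO, ELANE, PRTN3 and CTSG went from 45.23 to 47.74 to 34.46 to 37.88. A log2 scale of array intensities has no zero, and the part of these levels in the results was not tested.

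With TiO2-NB 4701 of 10050 genes (46.8%) were called between 1 h and 24 h, 2624 higher (26.1%) and 2077 lower (20.7%). In control cells 3708 genes (36.9%) were called, 2087 higher (20.8%) and 1621 lower (16.1%). Counts of list members below are to be read against these shares. The median change of all genes was 0.05 with TiO2-NB and 0.03 in control. The 3 arrays of either time did not overlap in 52% of all genes with TiO2-NB and in 45% in control, against which the statements on overlap below are to be read. Changes of at least 2-fold were 138 rises and 388 falls with TiO2-NB, and 191 rises and 332 falls in control cells. These are 5.23% and 5.2% of the genes, and 327 of them were shared in direction, that is 62.2% of the 526 with TiO2-NB and 62.5% of the 523 in control. Across genes the changes of the 2 conditions, which share no array, correlated with r = 0.73 and Spearman's rho = 0.535 over 10050 genes, given as a description since genes are not independent.

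The difference of time changes was called for 1642 genes (16.3%), 753 of them higher with TiO2-NB (7.49%) and 889 lower (8.85%). Without replicate 2 of the 24 h control 1077 were called, and without replicate 1 of the 24 h TiO2-NB group 1448. Median centring of the arrays turned the split to 984 higher and 720 lower. Every gene was placed in a class from these 3 calls. A time change was kept in 1394 genes (13.9%), which were called the same way in both conditions with a difference that was not called and whose 95% interval lay within 1.5-fold. The median size of their changes was 0.42 with TiO2-NB and 0.41 in control, itself less than 1.5-fold. Kept thus means no difference beyond 1.5-fold, and not an equal change. At 24 h 157 of them were called between TiO2-NB and control. A time change was unresolved in 543 more genes (5.4%), called the same way in both but with a wider interval. It was smaller with TiO2-NB in 155 genes (1.54%) and larger in 135 (1.34%). It appeared with TiO2-NB in 768 genes (7.64%), which were called with TiO2-NB, not in control, and for the difference, and it was lost in 428 genes (4.26%), which were called in control, not with TiO2-NB, and for the difference. Another 1586 genes (15.8%) were called with TiO2-NB alone and 933 (9.28%) in control alone without a called difference, so for these the 2 conditions were not shown to differ. It ran in opposite directions in 120 genes (1.19%), while 3952 genes (39.3%) were called in none of the 3 tests. Of the 523 control changes of at least 2-fold, 80 were kept, 265 unresolved, 92 smaller, 23 larger, 47 lost and 3 reversed, and 13 were called in control alone without a called difference. Without replicate 2 of the 24 h control the larger class held 72 genes, the appeared class 493 and the reversed class 78. Without replicate 1 of the 1 h control the larger class held 78.

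**Figure D1:**
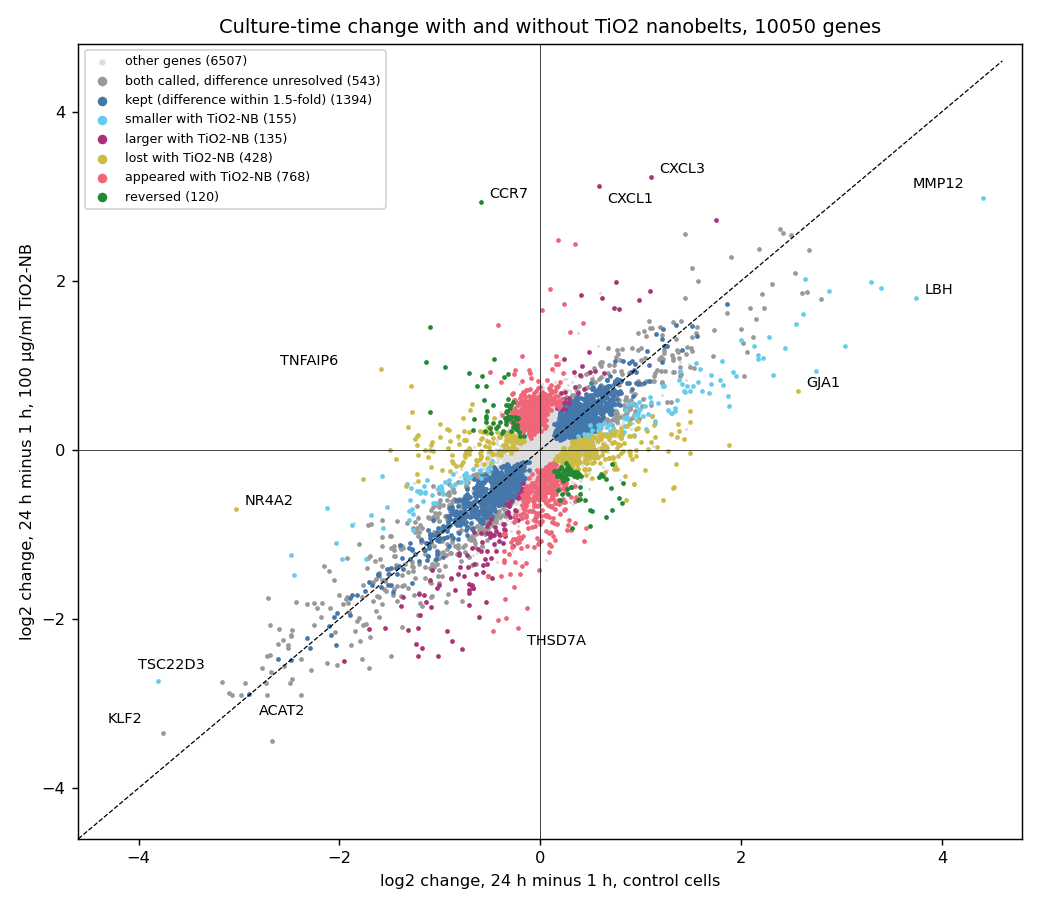
Log2 time change (24 h minus 1 h) of 10050 genes in control cells (horizontal axis) and with 100 µg/ml TiO2-NB (vertical axis), each point a gene coloured by its class. Most strong falls lie near the diagonal, while chemokines and CCR7 lie far above it and LBH, MMP12 and GJA1 below it; CCR7 was 2.93 with TiO2-NB and -0.59 in control.

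Genes of cell division fell steeply with TiO2-NB, as they did in control cells. Of 29 tested mitosis and spindle genes 28 fell with TiO2-NB and the same number in control cells, with median changes of -2.07 and -2.26, and the difference was called for none of them. By class 6 were kept and 22 unresolved. CENPF, a kinetochore protein, lay at 9.78, 9.62 and 9.74 in the 1 h arrays and at 7.25, 7.20 and 7.26 in the 24 h arrays with TiO2-NB. The control arrays lay at 9.51, 9.36 and 9.53 and then at 6.71, 6.99 and 6.85, so the times were far apart in both conditions. CENPF fell by 2.48 ± 0.09 with TiO2-NB (limma adjusted p = 8.51e-16) and by 2.62 ± 0.09 in control, and the difference of 0.14 had a 95% interval from -0.13 to 0.41. ASPM, which organises spindle poles, fell by 2.88 ± 0.21 and TTK, a checkpoint kinase, by 2.75 ± 0.16. CDC20, an activator of the anaphase-promoting complex, fell by 2.43 ± 0.16 with TiO2-NB and by 2.69 in control. CDKN3, a phosphatase of cyclin-dependent kinases, changed alike in both conditions (-2.48 and -2.49, difference 0.01 with an interval from -0.46 to 0.47).

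The promoters of this group are shown because so many of its members share a short motif. The cell cycle homology region (CHR) has the letters TTTGAA and serves in late cell cycle genes, and it was searched on both strands from 250 bases before to 50 after the RefSeq start site. It was found in 16 of 24 mitosis genes with a promoter entry (66.7%), and in 816 of the 8129 tested genes with one (10%). The letters TTTNNCGC of E2F sites were found in 13 of 24 replication genes (54.2%) and in 3 of 24 mitosis genes (12.5%), against 10.2% of all. A match is a description and not a shown binding site. The 130 bases before the start site of ASPM (chr1:197146670-197146799, minus strand) and CDC20 (chr1:43358851-43358980, plus strand) of GRCh38.p14 are given 5′ to 3′ with the CHR letters, or their reverse complement in ASPM, in capitals.
ASPM: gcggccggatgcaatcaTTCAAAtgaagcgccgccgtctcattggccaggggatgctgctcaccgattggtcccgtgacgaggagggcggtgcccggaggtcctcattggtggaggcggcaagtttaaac
CDC20: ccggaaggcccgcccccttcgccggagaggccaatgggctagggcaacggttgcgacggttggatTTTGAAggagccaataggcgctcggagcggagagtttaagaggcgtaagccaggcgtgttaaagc

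DNA replication genes fell less steeply. Of 27 tested members 18 fell with TiO2-NB and 23 in control, with medians of -0.62 and -0.82, and again the difference was called for none. RRM2, the regulated subunit of ribonucleotide reductase, fell by 1.13 ± 0.24 (control -1.45), GINS1, a subunit of the replicative helicase, by 1.17 ± 0.21 (control -1.39) and CDC6, a licensing factor, by 1.07 ± 0.13 (control -1.03). The difference for RRM2 was 0.32 with an interval from -0.38 to 1.03, so these arrays do not settle whether its fall was smaller. CDKN1A, the inhibitor p21, rose by 0.73 ± 0.10 with TiO2-NB and by 0.58 in control and was of the kept class. CCND1, cyclin D1, rose more with TiO2-NB (0.93 ± 0.06 against 0.55, difference 0.39 ± 0.09, limma adjusted p = 0.00487), a call that was not made when all its probe sets were averaged (adjusted p = 0.344), and its other probe set changed by 0.05 with TiO2-NB and 0.06 in control.

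Genes of sterol synthesis and uptake, which the factor SREBP2 drives when sterol is scarce, were lower at 24 h in both conditions. Of 17 tested members 15 fell with TiO2-NB and 16 in control, with medians of -1.72 and -1.36, and 8 were kept, 4 larger, 1 smaller and 2 unresolved. ACAT2, cytosolic acetoacetyl-CoA thiolase, lay at 10.22, 10.35 and 10.15 at 1 h and at 7.65, 7.17 and 7.26 at 24 h with TiO2-NB. It fell by 2.88 ± 0.17, beside -2.90 in control. HMGCS1, the HMG-CoA synthase of the pathway, fell by 2.08 ± 0.11 and by 2.11 in control, and the 95% interval of its difference ran from -0.30 to 0.36. IDI1, the isopentenyl diphosphate isomerase, fell by 2.31 ± 0.10 against 2.03. The later enzyme SC5D fell more with TiO2-NB (-2.10 ± 0.09 against -1.55, difference -0.56 ± 0.13, adjusted p = 0.0054). LSS, lanosterol synthase, was the member with a smaller fall (-0.38 against -0.95). SCD, the stearoyl-CoA desaturase, was kept at -1.60 ± 0.08, and its other probe sets changed by -0.64 to -0.85. On the export side, the cholesterol transporter ABCA1 rose by 1.03 ± 0.14 (control 0.61) and was unresolved. NR1H3, which encodes the sterol sensor LXR-alpha, rose by 1.77 ± 0.18 against 0.98, and the call of its difference (0.79 ± 0.25, adjusted p = 0.0318) was lost without replicates 2 or 3 of the 1 h control, 1 or 2 of the 24 h control, 1 or 3 of TiO2-NB at 1 h or 2 or 3 at 24 h (adjusted p up to 0.0883). ABCG1, another sterol exporter, rose by 0.98 ± 0.32 with TiO2-NB (adjusted p = 0.0135), but not without replicate 1 at 1 h or replicate 2 at 24 h (adjusted p up to 0.0746).

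Granule and progenitor genes of the promonocyte stage also kept falling beside the particles. Of 17 tested members 10 fell and 1 rose with TiO2-NB, 9 fell and 1 rose in control, and the medians were -0.86 and -0.80. CTSG, the neutrophil protease cathepsin G, lay at 12.74, 12.01 and 12.35 at 1 h and at 8.86, 9.79 and 9.74 at 24 h with TiO2-NB. The spread at 24 h was wide and the 2 times did not overlap. CTSG fell by 2.90 ± 0.36, PRTN3, proteinase 3, fell by 2.90 ± 0.44 and ELANE, neutrophil elastase, fell by 2.76 ± 0.43, each without a called difference from control. MS4A3, a membrane protein of granulocyte and monocyte precursors, fell from 7.30, 6.62 and 7.71 to 3.53, 4.25 and 3.54. The mean at 24 h lay under the 25th percentile of the arrays (4.77 to 4.91). Its change of -3.44 ± 0.36 against -2.67 in control left a difference of -0.77 that was not called (interval from -1.83 to 0.29). KLF2, a transcription factor that holds monocytes quiescent, fell by 3.35 ± 0.25 (control -3.76).

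Interferon-stimulated antiviral genes fell together as well. Of 28 tested members 26 fell and none rose with TiO2-NB, 25 fell and 1 rose in control, and the medians were -1.07 and -1.17. IFITM1, a membrane protein that restricts virus entry, lay at 10.22, 9.45 and 9.84 at 1 h and at 7.49, 7.33 and 7.28 at 24 h, a fall by 2.47 ± 0.25 beside 2.38 in control. IFI44L fell by 2.31 ± 0.20, TRIM22 fell by 2.02 ± 0.13 and MX1, a GTPase that blocks virus replication, by 1.82 ± 0.22. By class 9 of the 28 were kept, 14 unresolved and 2 smaller. One of the smaller ones was OAS3, an activator of RNase L, at -0.51 ± 0.12 against -1.14 (adjusted p = 0.0125). The MHC class II gene HLA-DRA fell by 1.32 ± 0.27 and by 1.27 in control. Of 9 tested genes for metallothioneins and zinc transport 6 were kept, all but 1 of them metallothioneins that fell; the other was the zinc importer SLC39A14, at 1.47 with TiO2-NB and 1.35 in control. MT2A fell by 0.30 ± 0.11 against 0.35, and its call with TiO2-NB was lost without replicates 1 or 3 at 1 h or 3 at 24 h (adjusted p up to 0.137 over all alternatives).

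The kept class held 762 rises, among them those of surface and matrix genes. CD59, which shields cells from complement, lay at 8.95, 8.61 and 8.62 at 1 h and at 10.52, 10.42 and 10.42 at 24 h with TiO2-NB, and rose by 1.73 ± 0.13 against 1.86 (interval of the difference from -0.53 to 0.26). MMP9, gelatinase B, rose by 1.38 ± 0.08 against 1.15 and COL4A2, a basement membrane collagen chain, by 1.35 ± 0.06 against 1.56. All 3 were kept. SEMA3C, a secreted semaphorin, rose by 2.61 ± 0.24 and NRG1, a ligand of ERBB receptors, by 2.56 ± 0.23, both unresolved, and another probe set of NRG1 changed by -0.34. CNR1, a cannabinoid receptor, rose by 2.38 ± 0.27, and its other probe sets by 0.80 and 0.95. Of 25 tested matrix and coagulation genes 14 rose and 3 fell with TiO2-NB, 14 and 2 in control, with medians of 0.65 and 0.45. Over all genes 26.1% rose and 20.7% fell with TiO2-NB, and 20.8% and 16.1% in control.

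Chemokines of the CXC family that attract neutrophils rose far more with TiO2-NB than in control cells. Of 23 tested cytokines and chemokines 15 rose and 1 fell with TiO2-NB, while 6 rose and 3 fell in control. The median change was 1.02 against 0.14, and the difference was called higher for 12 members and lower for none, beside 7.49% of all genes called higher. CXCL3 had the largest rise of all named genes. Its level was 7.23, 7.02 and 7.0 at 1 h and 10.70, 10.04 and 10.19 at 24 h with TiO2-NB, and 6.77, 6.60 and 6.68 and then 7.70, 7.81 and 7.86 in control. The 24 h arrays with TiO2-NB lay above all others. The rise was 3.23 ± 0.15 (limma adjusted p = 4.13e-14) against 1.11 in control, and the difference 2.12 ± 0.21 (adjusted p = 5.49e-07). CXCL1 went from 7.61, 7.04 and 7.63 to 11.04, 10.26 and 10.33, a rise of 3.12 ± 0.23 against 0.58 and a difference of 2.53 ± 0.32 (adjusted p = 1.15e-05). CXCL2 rose by 2.48 ± 0.17 with TiO2-NB and was not called in control (0.18), and CXCL5 by 2.43 ± 0.22 beside 0.34. The probe sets of CXCL2 and CXCL5 are of a kind that may bind near-identical transcripts, as is that of CXCL8, so part of their signal may come from their paralogs. CXCL6 rose by 1.99 ± 0.22 against 0.76. The mean 1 h levels of CXCL5 and CXCL6 with TiO2-NB lay under the 25th percentile of the arrays (4.77 to 4.91). CXCL8, interleukin 8, rose by 1.02 ± 0.11 beside 0.15 in control, from a level near the top of the scale (12.21, 11.95 and 12.12 at 1 h, 13.34, 12.83 and 13.15 at 24 h). Its difference was 0.86, while its other probe set rose by 1.75 beside 0.25.

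The promoters of these genes are shown because a motif of NF-kappaB recurs in them. The letters GGANTTTCC, searched on both strands over the same window, were found in 7 of 16 cytokine genes with a promoter entry (43.8%), namely CXCL1, CXCL2, CXCL3, CXCL5, CXCL6, CXCL8 and CXCL10. They were found in 5 of 13 NF-kappaB subunits and feedback targets (38.5%) and in 138 of all 8129 promoters (1.7%). CXCL1, CXCL2 and CXCL3 are recent duplicates with much the same promoter, so their matches are not independent. CXCL10, which has the letters, was not called with TiO2-NB (-0.46). Searches for other motifs gave few matches. The letters TCACNCCAC of sterol regulatory elements were found in 1 of 16 sterol genes (6.25%) and in 1.06% of all promoters. Those of AP-1 sites, TGANTCA, were found in 1 of 20 immediate early genes (5%) and in 5.07% of all. The 130 bases before the start site are given 5′ to 3′ from RefSeq on GRCh38.p14 with the motif in capitals, for CXCL3 (chr4:74038690-74038819, minus strand), CXCL1 (chr4:73869263-73869392, plus strand), CXCL2 (chr4:74099196-74099325, minus strand) and CXCL8 (chr4:73740439-73740568, plus strand).
CXCL3: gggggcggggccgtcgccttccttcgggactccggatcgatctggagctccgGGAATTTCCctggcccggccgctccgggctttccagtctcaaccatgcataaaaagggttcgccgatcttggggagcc
CXCL1: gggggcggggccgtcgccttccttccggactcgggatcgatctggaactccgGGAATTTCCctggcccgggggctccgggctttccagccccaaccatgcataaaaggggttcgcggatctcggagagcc
CXCL2: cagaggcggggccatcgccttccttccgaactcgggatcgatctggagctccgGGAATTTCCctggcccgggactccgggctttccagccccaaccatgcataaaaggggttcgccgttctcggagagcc
CXCL8: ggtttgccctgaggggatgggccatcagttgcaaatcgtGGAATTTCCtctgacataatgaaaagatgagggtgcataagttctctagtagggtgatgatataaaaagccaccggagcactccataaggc
The motif starts 78 bases before the start site in CXCL3 and CXCL1, 77 in CXCL2 and 91 in CXCL8.

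Other secreted signals followed. TNF, the inflammatory cytokine, lay at 8.70, 8.34 and 8.75 at 1 h and at 10.66, 10.11 and 10.19 at 24 h with TiO2-NB, and at 8.69, 8.36 and 8.76 and then 8.51, 8.69 and 9.31 in control. It rose by 1.72 ± 0.21 with TiO2-NB and was not called in control (0.23), and the difference was 1.49 ± 0.29 (adjusted p = 0.00128). IL24, a cytokine of the interleukin 10 family, rose by 1.90 ± 0.16 beside 0.09 in control, LIF, a cytokine of the interleukin 6 family, by 1.83 ± 0.14 beside 0.41, and CCL2, which attracts monocytes, by 0.95 ± 0.22 beside -0.25. CSF1, the macrophage growth factor, rose by 1.07 ± 0.18 and fell by 0.47 in control, while its other probe sets rose by 0.25 to 0.55 with TiO2-NB. CCL20, which attracts CCR6-bearing lymphocytes and dendritic cells, rose by 2.72 ± 0.23 against 1.75. The call of its difference (0.98 ± 0.33, adjusted p = 0.0436) was lost without any 1 array of the 4 groups except replicate 3 of either 24 h group (adjusted p up to 0.118), and with the replicate number as a block at 1 h (adjusted p = 0.0515). IL1B rose by 1.34 ± 0.20 and by 1.06 in control, from 12.68, 12.18 and 12.73 to 13.76, 13.94 and 13.93, and its difference of 0.29 had an interval from -0.30 to 0.88. These IL1B levels also lay near the top of the scale, where the highest value of the series was 14.42. The receptor tyrosine kinase gene MET rose by 1.80 ± 0.21 against 0.61 (difference 1.18 ± 0.30, adjusted p = 0.00901), and its other probe sets gave differences of 0.74 and 0.47.

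**Figure D2:**
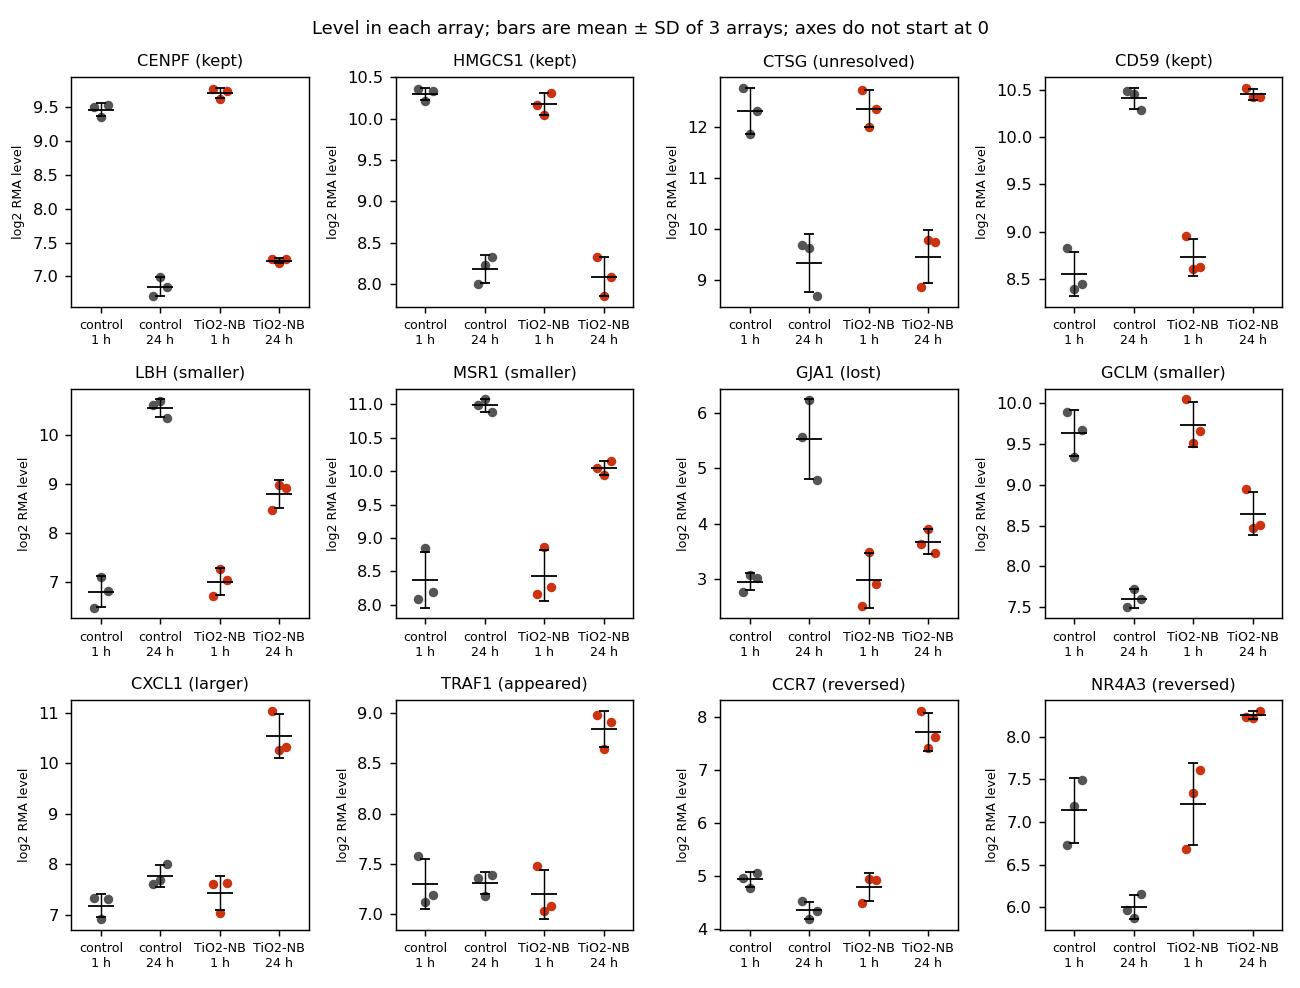
Log2 RMA level of 12 genes in each array of control cells and of cells with 100 µg/ml TiO2-NB at 1 h and 24 h, with bars for the mean ± SD of 3 arrays and the class of each gene in its title. CENPF fell alike in both conditions, while the 24 h arrays with TiO2-NB stand above the other 9 arrays for CXCL1, TRAF1, CCR7 and NR4A3.

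Among subunits and feedback targets of NF-kappaB rises also outnumbered falls. Of 17 tested members 11 rose and 1 fell with TiO2-NB, whereas 2 rose and 7 fell in control, and the medians were 0.61 and 0.01. The difference was called higher for 9 and lower for none, beside 7.49% of all genes called higher. IER3 had the largest rise of the list with TiO2-NB, 2.16, but its difference from control of 0.65 was not called (limma adjusted p = 0.0716). TRAF1, an adaptor of TNF receptors, lay at 7.48, 7.03 and 7.07 at 1 h and at 8.99, 8.64 and 8.91 at 24 h, a rise of 1.65 ± 0.17 beside 0.01 in control. TNFAIP3, the enzyme A20 that limits NF-kappaB, rose by 0.90 ± 0.12 and fell by 0.32 in control. ICAM1, an adhesion molecule, rose by 1.11 ± 0.11 beside 0.16. TNFAIP6, a hyaluronan-binding protein, fell by 1.59 in control and changed by 0.95 ± 0.40 with TiO2-NB, which was not called (adjusted p = 0.0555). Its difference of 2.54 ± 0.57 was called (adjusted p = 0.00406), while the rise with TiO2-NB itself was called without replicate 1 at 1 h or replicates 2 or 3 at 24 h and under some other settings (adjusted p from 0.0265 to 0.304). PTGS2, cyclooxygenase 2, rose by 1.48 ± 0.18 from 6.03, 6.16 and 6.33 to 8.16, 7.38 and 7.41, while its control value was -0.42.

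Genes whose time course turned round included 4 of the 14 tested dendritic cell maturation genes, CCR7, LAMP3, CD83 and CD40, beside 1.19% of all genes in the reversed class. CCR7, the chemokine receptor that guides such cells to lymph nodes, lay at 4.48, 4.94 and 4.92 at 1 h and at 8.11, 7.42 and 7.61 at 24 h with TiO2-NB. In control it went from 4.96, 4.77 and 5.05 to 4.52, 4.18 and 4.33. All these 24 h control levels lay under the 25th percentile of the arrays (4.77 to 4.91). The control fall of CCR7 is thus one among low levels. The 24 h arrays with TiO2-NB lay far above the other 9, with replicate 1 highest. It rose by 2.93 ± 0.17 with TiO2-NB and fell by 0.59 in control, and the difference of 3.52 ± 0.24 (adjusted p = 1.34e-09) was the largest among the named genes. CCL4, a chemokine for monocytes and T cells, rose by 1.45 ± 0.23 and fell by 1.09 in control. LAMP3, a membrane protein of lysosomes in mature dendritic cells, rose by 0.97 ± 0.28 and fell by 0.95 in control, at levels of 2.92 to 5.71, of which the 1 h mean with TiO2-NB lay under the 25th percentile of the arrays (4.77 to 4.91). The control means of LAMP3 at 1 h and 24 h lay under it too, so its control fall is also one among low levels. Of 14 tested dendritic cell maturation genes 9 rose and none fell with TiO2-NB, against 2 and 4 in control. The difference was called higher for 7 and lower for 1, beside 7.49% and 8.85% of all genes. That of MARCKSL1, another member, was -0.32 and was not called. The list includes IDO1, an enzyme of tryptophan breakdown, at 0.95 ± 0.12 beside 0.11. Among the reversed genes TNFSF9, the ligand of 4-1BB, rose by 0.45 ± 0.12 and fell by 1.10 in control, and the zinc finger gene HIVEP2 rose by 0.91 ± 0.18 and fell by 0.71.

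Several immediate early genes, which cells switch on soon after a stimulus, did not show their control fall with TiO2-NB. Of 28 tested members 13 rose and 7 fell with TiO2-NB, and 7 rose and 12 fell in control, with the difference called higher for 8 and lower for none, beside 7.49% of all genes called higher. In control 20.8% of all genes rose and 16.1% fell. By class 5 members were kept, 7 unresolved, 2 appeared, 3 lost and 3 reversed, and 6 fell in both conditions. KLF2 was among the members that fell with TiO2-NB (-3.35). So was DUSP4 (-1.79), whose other probe set changed by -0.55. NR4A3, an orphan nuclear receptor, lay at 6.68, 7.34 and 7.62 at 1 h and at 8.24, 8.22 and 8.31 at 24 h with TiO2-NB, and went from 6.74, 7.20 and 7.49 to 5.97, 5.88 and 6.16 in control. It rose by 1.04 ± 0.26 and fell by 1.14, a difference of 2.18 ± 0.36 (adjusted p = 0.000282). NR4A2, its paralog, fell by 3.03 in control and was not called with TiO2-NB (-0.70 ± 0.47). The call of the NR4A2 difference of 2.33 ± 0.67 (adjusted p = 0.0195) was lost without replicate 2 of the 1 h control or replicate 3 of TiO2-NB at 1 h (adjusted p up to 0.0596). ATF3, a stress-induced transcription factor, fell by 1.43 in control and stood at 12.62, 12.47 and 12.47 after 24 h with TiO2-NB, beside 12.60, 12.83 and 12.46 at 1 h. Among other genes, PKIG, an inhibitor of protein kinase A, had the same course (-1.50 in control, -0.01 ± 0.14 with TiO2-NB). CTSK, cathepsin K, fell by 1.23 in control and was not called with TiO2-NB (0.17 ± 0.27, difference 1.40 ± 0.38, adjusted p = 0.0152).

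Antioxidant genes driven by NRF2, the factor that senses oxidants and electrophiles, fell in control culture, and for many of them the fall was smaller or not called with TiO2-NB. Of 26 tested members 14 fell and none rose with TiO2-NB, 20 fell and none rose in control, with medians of -0.38 and -0.63. The difference was called higher for 12 and lower for none, beside 7.49% of all genes called higher, and 7 were smaller, 5 lost, 3 kept and 4 unresolved. SLC7A11, the cystine importer, lay at 12.08, 11.41 and 11.79 at 1 h and at 11.25, 10.90 and 11.06 at 24 h with TiO2-NB, and went from 11.95, 11.27 and 11.78 to 9.24, 9.45 and 9.92 in control. The difference was 1.44 ± 0.36 (adjusted p = 0.00821), while the fall with TiO2-NB (-0.69 ± 0.25, adjusted p = 0.0279) was no longer called without replicates 1 or 3 at 1 h or 2 or 3 at 24 h (adjusted p up to 0.13). TXNRD1, thioredoxin reductase, fell by 0.41 ± 0.08 against 1.33, with a difference of 0.92 ± 0.11 (adjusted p = 6.13e-06). NQO1, a quinone reductase, fell by 0.73 ± 0.09 against 1.31. GCLM, the regulatory subunit of the enzyme that starts glutathione synthesis, fell by 1.10 ± 0.19 against 2.03, and the call of its difference (0.94 ± 0.27, adjusted p = 0.0203) was lost without replicate 1 of the 1 h control, replicate 2 of TiO2-NB at 1 h or replicate 1 at 24 h (adjusted p up to 0.0654). NFE2L2, which encodes NRF2, fell by 0.59 in control and was not called with TiO2-NB (0.12 ± 0.10). HMOX1, heme oxygenase, went from 10.85, 10.57 and 10.89 to 10.64, 10.64 and 10.68 with TiO2-NB and fell by 0.64 in control. The call of the HMOX1 difference (0.52 ± 0.15, adjusted p = 0.0221) was lost without replicates 1 or 3 of the 1 h control or replicate 2 of TiO2-NB at 1 h (adjusted p up to 0.0717).

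Other falls were smaller beside the particles. TSC22D3, a glucocorticoid-induced leucine zipper protein, fell by 3.80 in control, from 11.48, 11.71 and 11.47 to 7.53, 7.77 and 7.96. With TiO2-NB it fell by 2.74 ± 0.12, to 8.57, 8.86 and 8.77, and the difference was 1.06 ± 0.16 (adjusted p = 0.00011). The other TSC22D3 probe set, which may bind near-identical transcripts, does not show this, with -1.99 beside -2.10 and a difference of 0.11. ADGRE5, the adhesion receptor CD97, fell by 1.48 ± 0.14 (control -2.45). NMB, neuromedin B, fell by 1.58 in control and by 0.32 ± 0.13 with TiO2-NB (adjusted p = 0.0482). That fall of NMB lay at the threshold and was not called under 12 of the alternatives, among them without replicates 1 or 2 of TiO2-NB at 1 h or any 1 array at 24 h, whereas its difference (1.27 ± 0.18, adjusted p = 6.59e-05) kept its call. The transcript of TIPARP, a target of the aryl hydrocarbon receptor, fell by 0.77 ± 0.20 against 1.69. Its difference (0.92 ± 0.28, adjusted p = 0.0267) was not called without replicate 2 of the 1 h control, 3 of the 24 h control, 1 or 3 of TiO2-NB at 1 h or 1 at 24 h (adjusted p up to 0.0756).

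Several strong rises of control culture were blunted. LBH, a transcriptional cofactor, lay at 6.72, 7.27 and 7.05 at 1 h and at 8.48, 8.99 and 8.93 at 24 h with TiO2-NB, against 6.48, 7.11 and 6.83 and then 10.62, 10.69 and 10.35 in control. Both 1 h groups overlapped and were lowest, and the 24 h control was highest. LBH rose by 1.79 ± 0.16 against 3.74, a difference of -1.95 ± 0.23 (adjusted p = 3.77e-06). CHODL, a membrane lectin, rose by 0.94 ± 0.18 against 2.74, SPARCL1, a secreted matrix protein, by 1.22 ± 0.22 against 3.03 and CEMIP, which takes part in hyaluronan breakdown, by 1.92 ± 0.27 against 3.39. MMP12, macrophage elastase, rose by 4.40 in control and by 2.98 ± 0.33 with TiO2-NB. The mean 1 h levels of SPARCL1 and MMP12 with TiO2-NB lay under the 25th percentile of the arrays (4.77 to 4.91). The MMP12 levels at 24 h were 7.0, 7.78 and 7.80 with TiO2-NB and 9.28, 9.52 and 8.04 in control, so the replicate of the control nearest to the exposed arrays lay just above them. The call of the MMP12 difference (-1.43 ± 0.47, adjusted p = 0.0394) was lost without any 1 replicate of the 1 h control, 1 or 2 of the 24 h control, 1 or 2 of TiO2-NB at 1 h or 1 at 24 h (adjusted p up to 0.125).

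Some receptors for uptake were among the blunted genes. Of 21 tested scavenger and phagocytic receptors 8 rose and 5 fell with TiO2-NB, 14 rose and 4 fell in control, and the medians were 0.16 and 0.45. The difference was called lower for 7 and higher for 1, beside 8.85% of all genes called lower. By class 6 were kept, 2 unresolved, 3 smaller, 4 lost and 1 appeared. The list members FCGR2A, ITGAM and GAS6 had differences of 0.15, -0.30 and -0.23, none of them called. CD163, the haemoglobin scavenger receptor, rose by 1.12 ± 0.15 against 2.17, to 9.14, 8.83 and 8.61 with TiO2-NB and 9.59, 9.63 and 9.84 in control, a difference of -1.05 ± 0.21 (adjusted p = 0.00144). MSR1, scavenger receptor A, which binds many particles, rose by 1.61 ± 0.21 against 2.61. The MSR1 difference (-1.0 ± 0.30, adjusted p = 0.0233) was not called without replicates 1 or 3 of the 1 h control, 2 of the 24 h control, 2 of TiO2-NB at 1 h or 2 at 24 h (adjusted p up to 0.0781). MERTK, a receptor for dying cells, rose by 1.88 in control and by 0.52 ± 0.20 with TiO2-NB. That rise of MERTK was not called without replicates 1 or 3 at 1 h or 2 or 3 at 24 h (adjusted p up to 0.128), whereas its difference of -1.35 ± 0.28 (adjusted p = 0.00238) kept its call. The summed macrophage markers given above were also lower with TiO2-NB than in control at 24 h, and their part in this was not tested. CD14 rose by 0.92 in control and was not called with TiO2-NB (0.31).

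Some control rises were not called with TiO2-NB. OSBPL3, an oxysterol-binding protein, was at 7.64, 7.68 and 7.82 at 1 h and at 7.54, 7.71 and 7.79 at 24 h with TiO2-NB, whereas it rose by 1.49 in control, from 7.42, 7.30 and 7.54 to 8.89, 8.99 and 8.86. The exposed arrays of both times overlapped, and the difference was -1.53 ± 0.10 (adjusted p = 1.34e-09). PRR5L, a partner of the kinase complex mTORC2, rose by 1.88 in control and changed by 0.06 ± 0.15 with TiO2-NB. GJA1, connexin 43, rose by 2.57 in control and was not called with TiO2-NB (0.69 ± 0.29, adjusted p = 0.0538, from 0.0167 to 0.245 over the alternatives). It was called without replicate 2 of TiO2-NB at 1 h or replicates 2 or 3 of the 24 h control. The same held with only the 6 arrays fitted, with the replicate block and with median centring. Over the alternatives the GJA1 change with TiO2-NB ran from 0.468 to 0.955. The GJA1 level with TiO2-NB, 2.53 to 3.92, lay under the 25th percentile of the arrays (4.77 to 4.91) at both times. Reversed falls included HHEX, a homeobox factor of blood cells, which fell by 0.93 ± 0.09 and rose by 0.32 in control, MNDA, a nuclear protein of myeloid cells (-0.62 ± 0.15 against 0.82), and SORL1, a sorting receptor (-0.71 ± 0.19 against 0.72).

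The larger class held 104 falls and the appeared class 309. PHACTR2, a regulator of phosphatase 1 and actin, went from 9.85, 9.88 and 9.75 to 8.11, 7.47 and 6.83 with TiO2-NB, a fall by 2.36 ± 0.23 against 0.78, and the 24 h arrays were spread over more than 1 log2 unit. The difference of PHACTR2 was -1.58, and its other probe sets gave -0.45 and -0.76. FYB1, an adaptor of immune receptors, fell by 1.79 ± 0.13 against 0.54 (difference -1.25 ± 0.18, adjusted p = 6.93e-05), with differences of -0.51 and -0.70 in its other probe sets. IL6R, the interleukin 6 receptor, fell by 2.44 ± 0.32 against 1.02 and CX3CR1, the fractalkine receptor, by 2.26 ± 0.31 against 0.88. The IL6R difference (-1.41 ± 0.45, adjusted p = 0.0329) was lost without replicates 1 or 2 of the 1 h control, 2 of the 24 h control, 1 or 2 of TiO2-NB at 1 h or 3 at 24 h (adjusted p up to 0.0965), and that of CX3CR1 (-1.39 ± 0.44, adjusted p = 0.0316) without replicates 1 or 3 of the 1 h control, 1 or 2 of the 24 h control, 2 of TiO2-NB at 1 h or 1 at 24 h (adjusted p up to 0.0946). SLC30A1, the zinc exporter, fell by 2.11 ± 0.18 against 1.22, with a difference of -0.89 ± 0.25 (adjusted p = 0.0183) that was not called without replicate 2 of TiO2-NB at 24 h (adjusted p = 0.0592). Among genes not called in control, THSD7A, a membrane protein with thrombospondin repeats, fell by 2.11 ± 0.34, NAA15, a subunit of the N-terminal acetyltransferase NatA, by 1.99 ± 0.29 and TM7SF3, a membrane protein, by 1.87 ± 0.20. The TM7SF3 arrays lay at 6.53, 6.40 and 6.28 at 1 h and at 4.97, 4.30 and 4.33 at 24 h with TiO2-NB, beside 6.39, 6.59 and 6.15 in the 24 h control, and their 24 h mean lay under the 25th percentile of the arrays (4.77 to 4.91).

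Several chaperones of the endoplasmic reticulum were lower after 24 h with TiO2-NB. Of 26 tested genes of the unfolded protein and integrated stress responses 11 fell and 5 rose with TiO2-NB, against 2 and 4 in control, and the difference was called lower for 8 and higher for 4, beside 8.85% and 7.49% of all genes. HSP90B1, the chaperone GRP94, lay at 9.70, 9.56 and 9.64 at 1 h and at 8.0, 8.06 and 8.29 at 24 h, a fall by 1.52 ± 0.15 against 0.48 (difference -1.03 ± 0.22, adjusted p = 0.00262). SDF2L1 fell by 0.78 ± 0.16 beside 0.06 in control, and CRELD2 by 0.52 ± 0.07 while it rose by 0.21. Among the members that rose was CEBPB, a transcription factor of inflammatory genes, by 0.73 ± 0.10 beside -0.02. The stress-induced ATF3, given above, also had a higher difference (1.325). In the lipid mediator pathway PLA2G4A, the phospholipase that releases arachidonic acid, fell by 0.90 ± 0.11 beside -0.06 in control. CYSLTR1, a leukotriene receptor, fell by 0.45 ± 0.15 with TiO2-NB and rose by 0.71 in control; the fall was not called without replicates 1 or 3 at 1 h or 2 or 3 at 24 h (adjusted p up to 0.0703), while the difference of -1.16 ± 0.22 (adjusted p = 0.000979) was. Its 24 h mean with TiO2-NB also lay under the 25th percentile of the arrays (4.77 to 4.91).

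**Figure D3:**
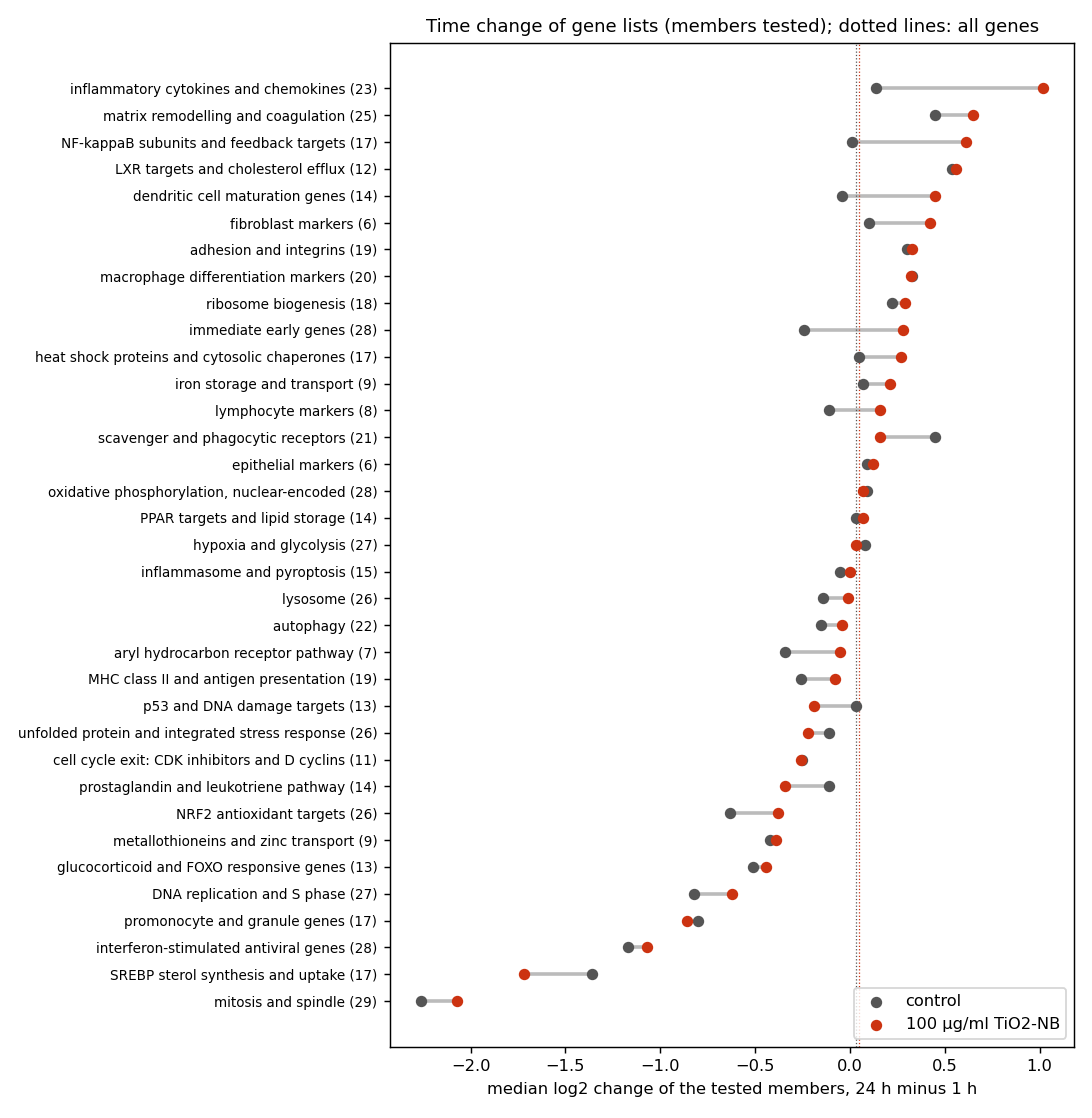
Median log2 time change of the tested members of each gene list in control cells (grey) and with 100 µg/ml TiO2-NB (red), with the number of members tested in brackets and dotted lines for all genes. The widest gap is that of the cytokines and chemokines, 0.14 in control and 1.02 with TiO2-NB, while mitosis genes have the lowest medians in both.

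Of 28 tested nuclear-encoded oxidative phosphorylation genes 5 rose and 2 fell with TiO2-NB (median 0.07), and 9 rose and 1 fell in control (median 0.09). Of 27 hypoxia and glycolysis genes 4 rose and 5 fell with TiO2-NB (median 0.03), and 5 rose and 5 fell in control (median 0.08). Of 22 autophagy genes 1 rose and 5 fell (median -0.04), and 1 rose and 8 fell in control (median -0.15). With TiO2-NB these shares lie under the 46.8% of all genes that were called, whereas those in control lie near their 36.9%. Of 18 ribosome biogenesis genes 10 rose and none fell with TiO2-NB and 8 rose in control, with medians of 0.29 and 0.22. Of 17 heat shock genes 9 rose and 2 fell with TiO2-NB and 3 rose and 3 fell in control, with the difference called for 2, beside 16.3% of all genes. Of 26 lysosomal genes 5 rose and 8 fell with TiO2-NB, and 4 rose and 11 fell in control. The shares of all genes were 26.1% higher and 20.7% lower with TiO2-NB, and 20.8% and 16.1% in control.

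The remaining lists mixed rises and falls, beside 26.1% of all genes higher and 20.7% lower with TiO2-NB, and 20.8% and 16.1% in control. Of 13 glucocorticoid and FOXO responsive genes 7 fell and 3 rose with TiO2-NB, beside 9 and 2 in control, with medians of -0.44 and -0.51. Of 13 p53 and DNA damage targets 3 fell and 1 rose with TiO2-NB, beside 5 and 3. Of 14 prostaglandin and leukotriene genes 7 fell and 2 rose, beside 4 and 2, and of 19 genes of MHC class II and antigen presentation 8 fell and 3 rose, beside 10 and 1. Among 19 adhesion and integrin genes the counts were the same in both conditions, 10 higher and 5 lower. The difference was called lower for 5 and higher for 2, beside 8.85% and 7.49% of all genes. Of 20 macrophage differentiation markers 9 rose and 5 fell with TiO2-NB and 10 rose and 4 fell in control. Markers of other cells rose in 4 of 6 fibroblast genes, 3 of 8 lymphocyte genes and 1 of 6 epithelial genes with TiO2-NB, against 2, 0 and 1 in control.

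Of the 1642 genes with a called difference, 1191 were also called between TiO2-NB and control at 24 h, 99 at 1 h, 12 at both and 364 at neither. These comparisons share arrays with the difference itself and are given side by side only. For CCR7 TiO2-NB minus control was -0.15 at 1 h and 3.37 at 24 h, for CXCL1 0.24 and 2.77, for LBH 0.20 and -1.75 and for SLC7A11 0.09 and 1.53. At 1 h 116 genes (1.15%) differed from control by limma, 22 of them higher and 94 lower, and 1582 had an unadjusted p under 0.05. Same-numbered arrays of the 1 h control and 1 h TiO2-NB groups deviated together, and with their number as a block, a fit chosen after the data were seen, 136 genes were called at 1 h, 109 of them shared with the 116. The count was 2 without replicate 1 of the 1 h control and 0 without replicate 2 (where 1341 had an unadjusted p under 0.05). Without replicates 1, 2 or 3 of TiO2-NB at 1 h it was 69, 21 and 12. Counts at 1 h that hang on single arrays do not settle how many of the differences were already there at that time.

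The same time comparison at the lower dose and with the other material shows how far these patterns reach. At the 10 µg/ml dose 3426 genes (34.1%) were called over time, and the change at 100 µg/ml differed from it for 612 genes (6.09%), 284 higher (2.83%) and 328 lower (3.26%). Without replicate 2 of the 1 h group at 100 µg/ml 395 were called, and without replicate 3 of that group 400. Centring each array on its median gave 359 higher and 241 lower. CXCL3 and CXCL1 lay between control and the high dose at 10 µg/ml, with CXCL3 at 1.60 (difference 1.63, adjusted p = 5.78e-05) and CXCL1 at 1.32 (difference 1.80, adjusted p = 0.00141). The 23 cytokines and chemokines had a median of 0.21 at 10 µg/ml, nearer to the 0.14 of control than to the 1.02 at 100 µg/ml. The change at 10 µg/ml was not tested against control. CCR7 was at 0.14 with 10 µg/ml (difference 2.79, adjusted p = 1.86e-07) and IL24 at 0.24, neither of them called over time at that dose. LBH rose by 3.33 and GJA1 by 2.22 at 10 µg/ml, nearer to control than to the high dose. Mitosis genes had a median of -2.27 at 10 µg/ml, and none of them differed between the doses.

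MWCNT at the same dose were compared with TiO2-NB in the same way. With MWCNT 4065 genes (40.4%) were called over time, and the time change with TiO2-NB differed from it for 2263 genes (22.5%), 1054 higher (10.5%) and 1209 lower (12%). Replication genes had a median change of 0.03 with MWCNT against -0.62 with TiO2-NB, and 13 of 27 were called lower with TiO2-NB. Mitosis genes had medians of -1.34 and -2.07, with 10 of 29 called lower with TiO2-NB. Among the 28 antiviral genes 16 were called lower with TiO2-NB and 1 higher; TRIM22 was -0.44 with MWCNT against -2.02 (difference -1.58, adjusted p = 1.06e-05) and IFI44L -0.52 against -2.31. Of 17 sterol genes 11 were called lower with TiO2-NB and 2 higher. The 23 cytokines and chemokines had similar medians, 0.95 with MWCNT and 1.02 with TiO2-NB, and 6 of them were called higher and 3 lower with TiO2-NB. As single genes in the other direction, IL24 was 0.02 with MWCNT against 1.90, CCR7 1.03 against 2.93 (difference 1.90, adjusted p = 1.9e-05), CXCL3 1.58 against 3.23 and NR4A3 -0.75 against 1.04 (difference 1.79, adjusted p = 0.00177). TM7SF3 was -0.08 with MWCNT against -1.87 (difference -1.79, adjusted p = 0.000171). CCL4 was 1.34 with MWCNT and 1.45 with TiO2-NB, TNFAIP6 1.21 and 0.95, and CCL20 3.14 and 2.72, none with a called difference. The fitted difference was 0.11 for CCL4, -0.25 for TNFAIP6 and -0.42 for CCL20.

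**Figure D4:**
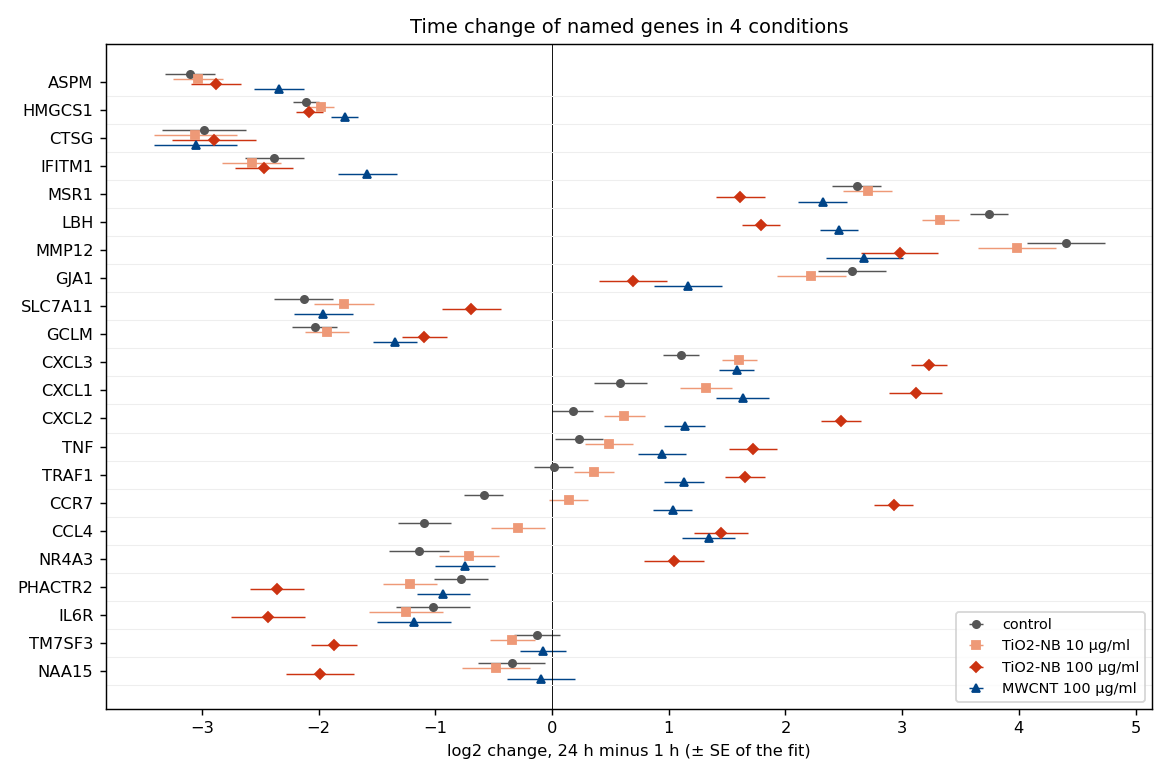
Log2 time change (24 h minus 1 h, ± SE of the fit) of 22 genes in control cells, with 10 and 100 µg/ml TiO2-NB and with 100 µg/ml MWCNT. ASPM and CTSG fell in all 4 conditions, while CCR7 rose by 2.93 with 100 µg/ml TiO2-NB, by 1.03 with MWCNT and stood at 0.14 with 10 µg/ml TiO2-NB.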

How the data were processed

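Total RNA of the 30 cultures was labelled with biotin and hybridised to 1-colour Affymetrix arrays. The authors deposited log2 expression values made with RMA, per the submitters' processing notes. RMA forces the probe intensities of all arrays to one distribution before they are summarised, so a shift of all RNA cannot be seen. The summarised values need not share one distribution, and their array medians ran from 6.35 to 6.46. The deposited values were used unchanged. Of 22277 probe sets 19064 name 1 gene, 1043 several and 2108 none in the platform annotation. A probe set was kept where it exceeded its array's 25th percentile on at least 3 arrays, and each of 10050 genes was represented by its kept probe set with the highest mean. Probe sets with x in the suffix may bind near-identical transcripts. One limma 3.58.1 model in R 4.3.3 with 10 group means (20 residual degrees of freedom) gave all comparisons, with Benjamini-Hochberg adjustment over all genes, and was tested on simulated data. With 3 arrays per group the median residual SD was 0.128, which with so few arrays sets the precision. The series design calls the samples biological replicates, with nothing on separate cultures or days, so p-values measure the spread between these samples.

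The members and gene lists were chosen with earlier results of these data known. Named genes were the largest called changes of each class and of each list by a written rule, 201 in all. These include HMOX1, IL1B, CXCL8, TNF, CCL2, MT2A, CDKN1A, ABCG1 and HMGCS1, which the rule names whatever their change. TXNRD1, NFE2L2, CD163, MERTK, ATF3, CDC20, CSF1, CTSK, SC5D, CRELD2, CYSLTR1 and OAS3 were added after their values were seen, as were LSS, CD14, CXCL10, CD83 and CD40. Pairing was checked by correlating deviations from the group means of same-numbered arrays, of which 51 of 135 pairs were above 0.1. Between the 2 times 1 of 3 exposed and 1 of 3 control pairs was above 0.1, so no block was used for the time changes. The 1 h control and 1 h TiO2-NB arrays did pair by number (0.60 to 0.69), the 24 h ones did not (-0.48 to -0.06), and TiO2-NB and MWCNT arrays did at both times (0.33 to 0.60 and 0.36 to 0.62). Blocks for these pairs were added after the data were seen. Promoter sequences are from RefSeq on GRCh38.p14. The alternatives were other normalizations, filters and probe set rules, narrower fits, a replicate block and each array left out in turn.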

Additional observations from a re-analysis of the deposited data

Results flagged for a closer look

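The time change differed between cells with 100 µg/ml TiO2-NB and control cells for 1642 genes by limma's test of the difference itself, which marks it for a closer look. They are 16.3% of all genes. Among the 213 named genes 102 had such a difference, a count that is largely fixed by the choice of names, since the rule took many of them by this very difference. The strongest was that of CCR7, 3.52 ± 0.24, which rose in exposed cells and fell in control cells.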

How the results depend on the processing

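Over 22 alternative settings the genes called over time with TiO2-NB numbered from 3777 (filter at the array median) to 5130 (no filter), and in control cells from 3147 to 3783. Of 9127 values of named genes 8844 stayed on their side of the threshold, 248 lost and 35 gained a call, and no called value changed direction. With only the control and 100 µg/ml TiO2-NB groups fitted, 1019 genes differed in time change, and the classes held 102 smaller, 73 larger, 494 appeared, 265 lost and 79 reversed genes; this fit has fewer arrays. Leaving out 1 array at a time gave 1077 to 1730 genes with a called difference, 72 to 123 larger, 493 to 864 appeared and 78 to 139 reversed, and 395 to 643 that differed between the doses. An interval of 1.2-fold gave 242 kept and 1695 unresolved genes, and one of 2-fold 104 unresolved, by its construction. With the replicate block 4757 genes were called with TiO2-NB, 3774 in control, 1739 for their difference, 654 between the doses and 2362 between the materials. With the number as a block among the 1 h control and 1 h TiO2-NB arrays 1825 genes had a called difference, and with it among the TiO2-NB and MWCNT arrays of each time 2527 differed between the materials. These 2 blocks were added after the data were seen, and beside the call of CCL20 they ended none among the named genes, of which 12 gained a call between the materials. At 1 h 116 genes differed between TiO2-NB and control, but 0 with only the control and 100 µg/ml TiO2-NB groups fitted by limma (1288 at an unadjusted p under 0.05), 13 with the filter at the array median, 47 with quantile normalization, 63 with a variance trend, 68 with loess and 0 to 167 with 1 array left out. The share of higher genes among called differences was 45.9% rose to 57.7% with median centring and 56.3% with quantile normalization, and was 37.5% with the filter at the array median. Between the doses it went from 46.4% to 59.8% with median centring or quantile normalization and 56.4% with loess, and between the materials from 46.6% to 57.7% (quantile) and 32.8% (filter at the median). The cause of these shifts was not tested. The median 95% interval of a difference reached 0.30 to either side, so smaller differences are mostly not detectable with 3 arrays per group.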
